A study of Mus musculus with 25 samples.

Results

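The livers of mice that had lost p53 and of mice that had lost Rb were compared 24 h after diethylnitrosamine (DEN), a liver carcinogen. The comparison took every array that the labels gave to 1 of these groups, namely 5 DEN-treated p53 knockout arrays (p53KO) and 4 DEN-treated Rb knockout arrays (RbKO), 9 of the 25 expression arrays of the series. All mice were FVB;129. In the knockouts, hepatocytes express Cre from the albumin promoter, which deletes loxP-flanked Rb1 or p53. How complete the deletion was, and whether it spared all other liver cells, was not measured here. Whether the wild-type mice carried Cre is not stated. DEN was injected intraperitoneally at 14 days of age at a dose of 20 mg/kg. The other groups in the fit were 5 DEN-treated wild-type arrays (WT), 5 DEN-treated arrays with both genes deleted (DKO), and 3 untreated WT and 3 untreated DKO arrays of the same age. For these last 6 arrays the sample labels name no treatment, and the series text speaks of saline. RNA of whole liver was measured on 1-colour Affymetrix arrays, and every value below is the authors' log2 signal. The labels do not say that replicates were separate animals, so p-values speak for the spread among these arrays, which may be technical.

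DEN is turned into an alkylating agent by cytochromes P450 of the hepatocyte and damages its DNA. p53 is a transcription factor that is stabilised by DNA damage and raises genes of cell-cycle arrest, cell death and DNA repair, as well as Mdm2, the ligase that degrades it. Rb binds E2F factors and holds back the genes of DNA replication and mitosis until cyclin-dependent kinases release them, and the juvenile liver is a tissue in which hepatocytes still divide.

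The p53 binding element is built from copies of a decamer, and promoters of the genes that were lower in p53KO were searched for it because p53 is the protein that 1 side of the comparison lacks. The promoters came from RefSeq on build GRCm38.p6 and ran from 250 bases before to 50 bases after the gene start. The search allowed no mismatch to the consensus decamer, which reads alike on both strands, and no other motif was searched. The 12 largest falls and the called members of the p53 target lists, both described below, made up 19 genes, of which 16 had a promoter in the table and 5 of these held the decamer (31.2%). Among all genes tested, 1078 of the 12588 with a promoter held it (8.56%), and among the tested members of the p53 target lists 12 of 43 (27.9%). Of the 12 called genes with the largest rises in p53KO, 2 of 12 held it (16.7%). A match describes the letters only. The 5 promoters follow, 5′ to 3′ on the strand of the gene, with the decamer in capitals.
Mdm2: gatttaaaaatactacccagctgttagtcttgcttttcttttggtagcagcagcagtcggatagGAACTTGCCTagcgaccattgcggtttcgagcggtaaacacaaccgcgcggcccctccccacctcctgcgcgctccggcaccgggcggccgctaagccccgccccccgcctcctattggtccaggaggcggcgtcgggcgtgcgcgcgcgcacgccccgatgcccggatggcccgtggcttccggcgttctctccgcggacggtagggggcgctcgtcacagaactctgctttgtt
Polk: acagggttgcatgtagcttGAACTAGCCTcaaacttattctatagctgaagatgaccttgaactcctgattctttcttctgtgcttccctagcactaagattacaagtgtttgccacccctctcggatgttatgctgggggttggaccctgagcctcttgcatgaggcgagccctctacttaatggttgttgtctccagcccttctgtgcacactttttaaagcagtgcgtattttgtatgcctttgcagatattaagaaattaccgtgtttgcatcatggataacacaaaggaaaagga
Abcb1b: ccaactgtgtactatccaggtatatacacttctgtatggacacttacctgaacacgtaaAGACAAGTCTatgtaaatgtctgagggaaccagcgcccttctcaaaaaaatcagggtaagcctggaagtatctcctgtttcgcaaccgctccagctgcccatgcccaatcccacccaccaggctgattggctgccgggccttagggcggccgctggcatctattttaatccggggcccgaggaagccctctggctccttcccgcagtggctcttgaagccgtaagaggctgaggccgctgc
Slco1a1: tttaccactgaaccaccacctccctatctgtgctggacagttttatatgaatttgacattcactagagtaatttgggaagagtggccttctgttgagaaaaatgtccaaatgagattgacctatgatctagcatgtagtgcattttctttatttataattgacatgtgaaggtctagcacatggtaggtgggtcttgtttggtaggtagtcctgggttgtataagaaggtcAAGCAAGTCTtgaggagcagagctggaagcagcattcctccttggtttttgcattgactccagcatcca
1700007K13Rik: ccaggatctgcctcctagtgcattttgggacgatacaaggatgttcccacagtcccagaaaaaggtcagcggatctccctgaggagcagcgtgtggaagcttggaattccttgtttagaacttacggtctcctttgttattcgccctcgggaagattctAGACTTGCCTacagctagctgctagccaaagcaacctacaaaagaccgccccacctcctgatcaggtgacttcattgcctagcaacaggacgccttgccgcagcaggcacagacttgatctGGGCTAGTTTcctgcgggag

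The promoter of Mdm2 lies at chr10:117710709-117711008 on the reverse strand, with its decamer starting at position -186, where 0 is the first base of the gene. Polk has its promoter at chr13:96519138-96519437 on the reverse strand and the decamer at -231, in 1 of the 2 promoters listed for the gene. For Abcb1b the promoter is chr5:8797897-8798196 on the forward strand, with the decamer at -191. That of Slco1a1 is chr6:141946913-141947212 on the reverse strand, and its decamer begins at -19, next to the gene start. 1700007K13Rik held a pair of decamers, at -91 and at 30, in chr2:28466275-28466574 on the reverse strand. All 5 genes were called lower in p53KO than in RbKO, by the values given below, and whether p53 binds there was not measured.

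The 25 arrays fall into 3 sets by their names, and only set 1 holds both groups. p53KO replicates 1 and 2 and RbKO replicates 1 to 3 are in set 1, RbKO replicate 4 is in set 2, and p53KO replicates 3 to 5 are in set 3. The first principal component (25.8% of the variance) averaged -11.8 in set 1, 46.6 in set 2 and 0.641 in set 3, and the set therefore enters the fit as a term. Set 3 is tied to set 1 through the DKO and p53KO arrays. DKO replicate 4, of set 3, had higher p53 target values than the other DKO arrays (Mdm2 at 8.50 against 6.50 to 7.53). Rb1 was no check of the p53KO and RbKO labels: its signal, from a probe set over the whole transcript, was 5.56, 5.76, 5.93, 5.91 and 5.68 in p53KO and 5.55, 5.64, 5.79 and 6.28 in RbKO, a p53KO minus RbKO difference of -0.13 (95% interval -0.55 to 0.29). The Rb1 signal was lower in untreated DKO (4.76 to 5.02) than in untreated WT (5.30 to 5.76). After DEN, DKO and WT overlapped (5.18 to 5.82 and 5.04 to 6.02), though not within set 1 (5.18 to 5.57 and 5.82 to 6.02). Within set 1, p53KO (5.56 and 5.76) and RbKO (5.55 to 5.79) were below WT as well, so this gap does not mark Rb1 loss. The p53 gene was not analysed here. Xist, the RNA of the inactive X chromosome, was high in p53KO replicates 1 and 5 and RbKO replicates 2 and 3 (9.70 to 10.35) and low in the other 5 arrays (3.04 to 3.65). Eif2s3y, a Y-linked gene, was at 4.54 in p53KO replicate 5, between the arrays with high Xist (2.46 to 2.62) and those with low Xist (7.05 to 7.73). Hepatocyte markers such as albumin averaged 11.17 to 11.23 in p53KO and 11.16 to 11.37 in RbKO.

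Between p53KO and RbKO, 92 of 15951 genes (0.577%) were called, that is, had an adjusted p under 0.05 with limma and Benjamini-Hochberg adjustment over all genes tested. Of these, 61 were lower in p53KO (0.382%) and 31 higher (0.194%). All 92 had the same direction within set 1 alone, and 88 were also called there, among 533 genes called in that fit (3.34%; 2.20% lower and 1.14% higher). The set 1 arrays are part of the fit to all arrays too, so this agreement is not independent of it. The smallest called difference was 0.52 on the log2 scale, the largest a 5.85-fold fall and a 3.62-fold rise. All 5 p53KO arrays lay on 1 side of all 4 RbKO arrays for 59 of the 92 genes, as they did for 715 of all genes tested (4.48%; 2.82% with p53KO below and 1.66% with it above). The calls depended on single arrays: 31 genes were called without p53KO replicate 1, 32 without p53KO replicate 2, 35 without RbKO replicate 1 and 60 without RbKO replicate 3, while 144 were called without DKO replicate 5. Of the 54 called genes followed through the alternatives, 14 stayed called whichever of the 9 compared arrays was left out: Gria3, Ces2e, Ephx1, Polk, Dglucy, Map3k20, Abcb1b, Plod2, Ckmt1, Prps2, Fbxw7, Rev1, Sult1c2 and Pttg1. Where a call ended without an array, that array is named beside the gene. With no set term 16 of the 54 stayed called, with the set as a random block 35, and with only the compared groups in the fit 41. That last fit gives the same difference as set 1 alone, because no other set holds both groups.

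Every call among the listed p53 target genes was lower in p53KO than in RbKO. Across 3 lists (arrest and feedback, cell death, repair and metabolism), 52 of 55 members were tested, 8 were called lower in p53KO and 0 higher (limma), beside 0.382% of all genes called lower. At an unadjusted p under 0.05, 12 of 19 arrest, 5 of 14 death and 9 of 19 repair genes were lower and 0 higher. Of all genes tested, 11.1% passed that p, 5.28% lower and 5.82% higher, and the counts at an unadjusted p given for other lists below stand beside these shares too. The p53KO minus RbKO difference was below 0 for 43 of the 52, with a median of -0.33 (-0.28 within set 1), where the median of all genes tested was 0.02. The mean log2 signal of the 52 genes was 5.81 and 5.86 in the p53KO arrays of set 1 and 6.30, 6.15 and 6.15 in the RbKO arrays of the same set. It was 5.69, 5.76 and 5.61 in the p53KO arrays of set 3 and 6.03 in the RbKO array of set 2. All p53KO arrays were thus below all RbKO arrays. DEN-treated WT lay at 5.90 to 6.36, DKO at 5.67 to 5.84 and the untreated arrays at 5.49 to 5.58, so that p53KO stood near DKO and RbKO within the range of WT. The count of 8 was 4 without p53KO replicate 1, 5 without RbKO replicate 1 and 12 without DKO replicate 5. Under the other settings it ranged from 4 with no set term to 16 with array weights, and no member was called higher under any of them.

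**Figure D1:**
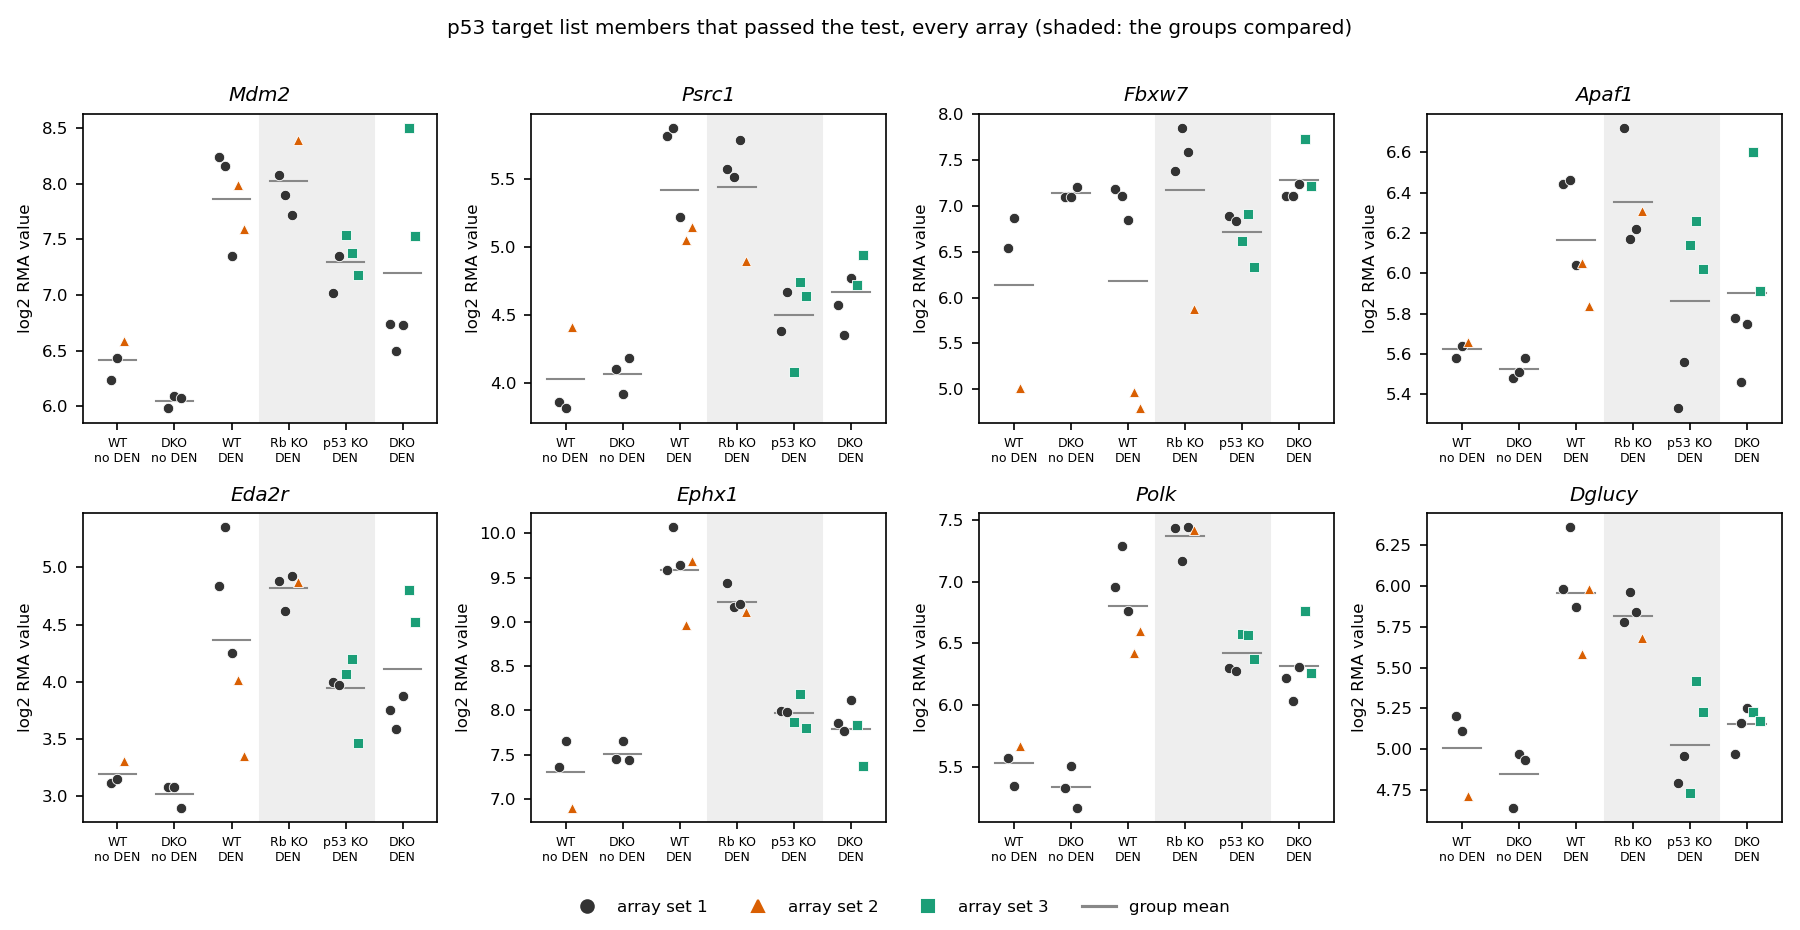
Log2 signal of 8 genes named in the text (Mdm2, Psrc1, Fbxw7, Apaf1, Eda2r, Ephx1, Polk and Dglucy) on every array, in 6 groups, with a marker shape for each array set, a grey line at each group mean and shading behind the p53KO and RbKO groups. All 5 p53KO arrays lie below all 4 RbKO arrays except for Fbxw7, where RbKO replicate 4 is at 5.87, and Apaf1, where p53KO reaches 6.26 and RbKO starts at 6.17.

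Among the arrest and feedback genes, 3 of 19 were called lower in p53KO. Mdm2, the ligase of the p53 feedback loop, was at 7.02, 7.35, 7.54, 7.38 and 7.18 in p53KO and at 8.08, 7.90, 7.72 and 8.39 in RbKO. The groups did not overlap, and the highest value was that of RbKO replicate 4. The difference was -1.15 (SE 0.25; limma adjusted p = 0.0312), but within set 1 it was -0.71 and not called (adjusted p = 0.0621), and the call ended without p53KO replicate 1 or RbKO replicate 1, 2 or 4 (adjusted p up to 0.0962). Psrc1, a microtubule-associated protein, had values of 4.38, 4.67, 4.08, 4.74 and 4.64 in p53KO and 5.58, 5.52, 5.79 and 4.90 in RbKO, again without overlap, although RbKO replicate 4 came close to p53KO. It fell by 1.09 (SE 0.21; limma adjusted p = 0.0130), a call that ended without p53KO replicate 1 or RbKO replicate 1 or 3 (adjusted p up to 0.0711). Fbxw7, the substrate receptor of a ubiquitin ligase that degrades cyclin E and Myc, was at 6.89, 6.83, 6.62, 6.91 and 6.33 in p53KO and at 7.38, 7.85, 7.59 and 5.87 in RbKO. The RbKO arrays of set 1 were above every p53KO array and that of set 2 below. WT showed the same gap between sets, with 6.85 to 7.18 in set 1 and 4.97 and 4.79 in set 2. With the set in the fit Fbxw7 differed by -0.96 (SE 0.17; limma adjusted p = 0.00534). It was not called with no set term, with the set as a random block or with only the compared groups in the fit, and its other, dimmer probe set differed by -0.21. Ccng1, cyclin G1, missed the threshold at -0.95 (limma adjusted p = 0.0510), with p53KO at 8.76 to 9.49 and RbKO at 9.88 to 10.43 and no overlap.

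Of the cell death genes, 2 of 14 were called, both lower in p53KO. Apaf1, the scaffold of the apoptosome, read 5.33, 5.56, 6.14, 6.26 and 6.02 in p53KO and 6.72, 6.17, 6.22 and 6.31 in RbKO. The set 1 arrays of p53KO were clearly lower and those of set 3 reached the RbKO values. With the set term the difference was -0.92 (SE 0.16; limma adjusted p = 0.00534), within set 1 -0.93, and the call ended without p53KO replicate 1 (adjusted p = 0.0565). It also ended with the set as a random block and with no set term, where the difference was -0.49 (adjusted p = 0.478). Eda2r, a receptor of the tumour necrosis factor family, was at 4.00, 3.97, 4.07, 4.20 and 3.47 in p53KO and 4.88, 4.62, 4.92 and 4.87 in RbKO, near the dim end of the array but without overlap. The difference was -1.25 (SE 0.28; limma adjusted p = 0.0337), and the call ended without p53KO replicate 1, 2 or 3, RbKO replicate 1, 3 or 4 (adjusted p up to 0.0869) or DKO replicate 4 (0.0636). Tnfrsf10b, the mouse TRAIL death receptor, differed by -0.67 (limma adjusted p = 0.232), and Ei24, an endoplasmic reticulum protein induced by p53, by -0.45 (adjusted p = 0.347).

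In the repair and metabolism list 3 of 19 members were called, and all of them belonged to the calls that no left-out array ended. Polk, the translesion polymerase kappa, was at 6.30, 6.28, 6.58, 6.57 and 6.37 in p53KO and at 7.43, 7.17, 7.44 and 7.42 in RbKO, a gap wider than the spread of either group. It fell by 1.14 (SE 0.16; limma adjusted p = 0.000860). Ephx1, the microsomal epoxide hydrolase, read 7.99, 7.98, 7.87, 8.19 and 7.80 in p53KO and 9.44, 9.17, 9.20 and 9.11 in RbKO. The arrays of each group lay close together in both sets, and the groups stood apart: -1.26 (SE 0.17; limma adjusted p = 0.000613), a 2.39-fold difference. Dglucy, the mitochondrial D-glutamate cyclase, was at 4.79, 4.96, 4.73, 5.42 and 5.23 in p53KO and 5.78, 5.96, 5.84 and 5.68 in RbKO, without overlap, and differed by -0.96 (SE 0.16; limma adjusted p = 0.00321). Ddias, an inhibitor of apoptosis after DNA damage, differed by -1.32 but was not called (limma adjusted p = 0.0638), with p53KO at 6.29 to 7.25 and RbKO at 7.97 to 8.49. Another translesion polymerase gene, Rev1, was named after its values were seen and belongs to no list. It was lower in p53KO, at -0.83 (limma adjusted p = 0.00463), with 5.88 to 6.49 in p53KO against 6.44 to 6.91 in RbKO, which overlap. Map3k20, a stress-activated kinase also named after its values were seen, was at 5.11, 5.36, 5.29, 5.50 and 5.23 in p53KO and 6.33, 6.14, 6.28 and 6.46 in RbKO. It fell by 0.98 without overlap (limma adjusted p = 0.00147). Pvt1, a long noncoding RNA next to Myc, was named in the same way and was just under the threshold (-0.68; limma adjusted p = 0.0484). Its dimmer probe set differed by -0.02, and the call ended without p53KO replicate 1, 2, 3 or 4, RbKO replicate 1, 3 or 4 (up to 0.185) or DKO replicate 4 (0.0889).

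The 12 largest falls in p53KO among the called genes were led by Gria3, a subunit of AMPA glutamate receptors, followed by transporters, metabolic enzymes and Mybl1. Gria3 was at 4.72, 5.02, 5.61, 5.93 and 5.58 in p53KO and 7.35, 7.08, 7.21 and 7.86 in RbKO. The lowest RbKO array stood well above the highest p53KO array, in both sets that hold p53KO. The difference was -2.55 (SE 0.27; limma adjusted p = 6.35e-06), 5.85-fold, and it was the one called gene that also differed from DEN-treated WT in both knockouts, lower in p53KO (-1.77; adjusted p = 0.00135) and higher in RbKO (0.78; adjusted p = 0.0297). The call in RbKO did not hold within set 1 (0.32; adjusted p = 0.458), where RbKO was at 7.35, 7.08 and 7.21 and WT at 6.52, 7.33 and 6.84. WT ran from 5.72 to 7.33, DKO from 5.34 to 6.97, and untreated WT from 4.63 to 4.74.

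Transporters of the hepatocyte membrane were among these falls. Slco1a1, an organic anion and bile acid importer, was at 5.68, 5.07, 4.92, 4.69 and 5.61 in p53KO and 6.38, 7.32, 7.73 and 7.55 in RbKO, without overlap. It differed by -1.94 (SE 0.34; limma adjusted p = 0.00523), 3.85-fold, and the call ended without p53KO replicate 2 (adjusted p = 0.0532). Abcb1b, a P-glycoprotein that pumps drugs out of the cell, was at 4.30, 4.22, 4.18, 4.89 and 3.55 in p53KO and 6.55, 5.38, 5.62 and 5.58 in RbKO, with RbKO replicate 1 the highest. Its difference was -1.84 (SE 0.31; limma adjusted p = 0.00443), 3.57-fold. DEN-treated WT lay between at 4.27 to 5.86, and RbKO was above WT (0.86; adjusted p = 0.0405). Slc22a30, a member of the organic anion transporter family with close relatives, was dim: 2.71 to 3.50 in p53KO and 4.54 to 5.41 in RbKO, a difference of -1.51 (limma adjusted p = 0.00443) that lost its call without p53KO replicate 2 (adjusted p = 0.0501). Whether its probes also read its relatives was not tested.

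The enzymes Ces2e, Cox6b2, Ckmt1 and Prps2 were also among the 12 largest falls and are described singly. Ces2e, a carboxylesterase that hydrolyses esters and drugs, was at 7.88, 7.61, 7.48, 8.07 and 7.56 in p53KO and 9.23, 9.11, 9.20 and 8.97 in RbKO. The RbKO arrays lay within the DEN-treated WT range (8.63 to 9.68), and the p53KO arrays overlapped untreated WT (7.08 to 7.73). It fell by 1.47 (SE 0.16; limma adjusted p = 6.35e-06), and its neighbour in the same gene cluster, Ces2g, differed by -0.76 (adjusted p = 0.0326), a call that ended without p53KO replicate 1 or 2, RbKO replicate 1 or 4 (up to 0.240) or DKO replicate 4 (0.0572). Members of this cluster are alike in sequence, and whether their probe sets read each other was not tested. Cox6b2, a subunit of cytochrome c oxidase, was at 5.79 to 7.08 in p53KO and 7.31 to 8.19 in RbKO (-1.67; limma adjusted p = 0.00443) and was not called without p53KO replicate 1 (adjusted p = 0.0537). Ckmt1, the mitochondrial creatine kinase, was at 4.72 to 5.17 in p53KO and at 6.36, 6.45 and 6.61 in the set 1 arrays of RbKO, but at 5.00 in RbKO replicate 4, so the groups overlapped. Its difference was -1.43 (limma adjusted p = 0.00590). Prps2, which makes phosphoribosyl pyrophosphate for nucleotides, ran from 5.41 to 6.02 in p53KO and 6.51 to 7.13 in RbKO (-1.28; limma adjusted p = 0.00534).

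Mybl1, a transcription factor of the Myb family, was at 5.29, 5.38, 5.50, 5.79 and 5.16 in p53KO and 6.70, 6.30, 6.66 and 7.29 in RbKO, without overlap. Its difference was -1.67 (SE 0.34; limma adjusted p = 0.0197), RbKO was above WT (1.08; adjusted p = 0.0199), and the call ended without p53KO replicate 1 or RbKO replicate 1 or 4 (up to 0.0638). Plod2, the lysyl hydroxylase that prepares collagen for cross-linking, was at 4.01 to 4.42 in p53KO and 5.15 to 6.00 in RbKO (-1.61; limma adjusted p = 0.00526). 1700007K13Rik was at 4.50 to 6.01 in p53KO and 6.29 to 7.63 in RbKO (-1.40; limma adjusted p = 0.0338). Its call ended without p53KO replicate 1 or 2, RbKO replicate 1, 2 or 3 (up to 0.146) or DKO replicate 4 (0.0570). Against DEN-treated WT it was lower in p53KO (-1.74; adjusted p = 0.00624) and not called in RbKO (-0.34).

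**Figure D2:**
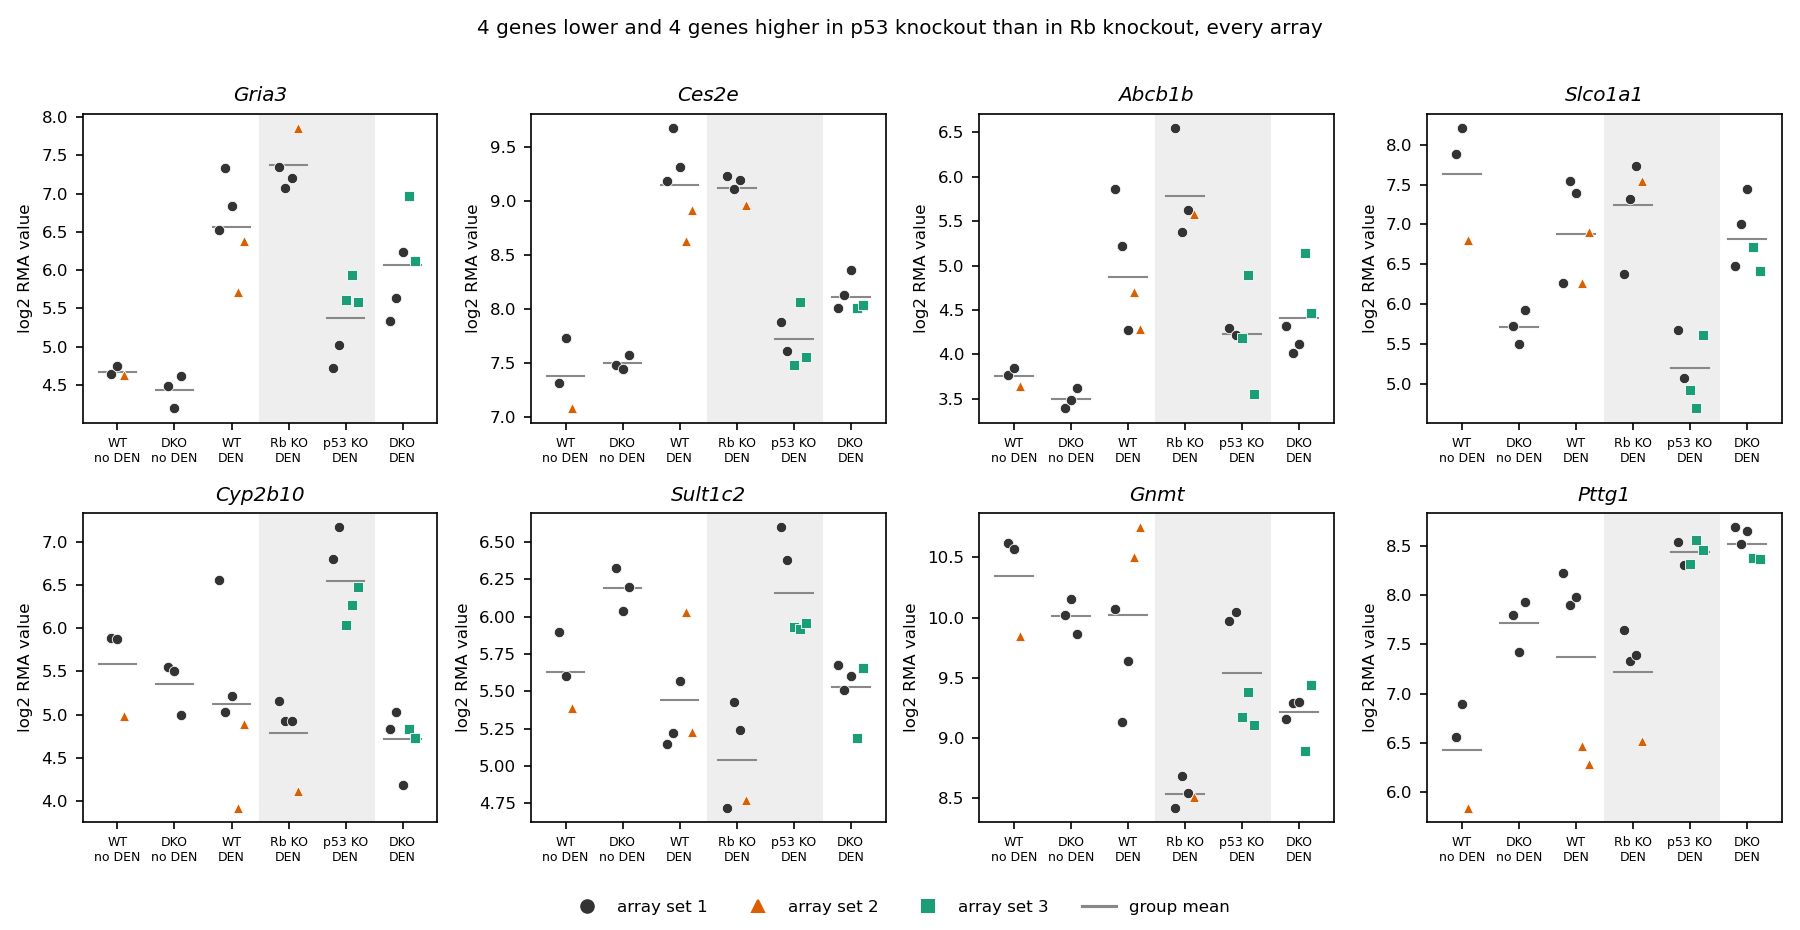
Log2 signal of 8 of the most changed genes on every array, in 6 groups, with a marker shape for each array set, a grey line at each group mean and shading behind the p53KO and RbKO groups. Gria3, Ces2e, Abcb1b and Slco1a1 are lower, and Cyp2b10, Sult1c2, Gnmt and Pttg1 higher, in all 5 p53KO arrays than in all 4 RbKO arrays.

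The genes higher in p53KO included enzymes that oxidise, reduce and conjugate foreign compounds and hormones. Cyp2b10, the cytochrome P450 used as a readout of the receptor CAR, was at 6.80, 7.17, 6.04, 6.27 and 6.48 in p53KO and 5.16, 4.93, 4.93 and 4.11 in RbKO. No p53KO array came near RbKO, and DKO, which also lacks p53, was at 4.18 to 5.03. The rise was 1.70 (SE 0.29; limma adjusted p = 0.00443), 3.24-fold. Cyp2b10 was also above WT in p53KO (1.20; adjusted p = 0.0314), where WT replicate 1 stood at 6.56 and the others at 3.92 to 5.21. The call against RbKO ended without p53KO replicate 2 (adjusted p = 0.0532). It was the 1 gene called among 35 cytochromes P450 and CAR targets, whose median difference was 0.09, and 6 of the 35 were higher and 2 lower at an unadjusted p under 0.05. Cyp2a22, named after its values were seen, was higher by 0.89 (limma adjusted p = 0.0341), with 8.68 to 9.11 against 7.91 to 8.77, which overlap through RbKO replicate 4. Its call ended without p53KO replicate 1 or 2 or RbKO replicate 1, 3 or 4 (up to 0.229). Both P450 genes have close relatives whose RNA their probe sets may share.

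Sulfotransferases and aldo-keto reductases of the Akr1c family, which conjugate and reduce steroids and drugs, had 2 of 15 members called higher, beside 0.194% of all genes, and 0 lower. Sult1c2 was at 6.60, 6.38, 5.93, 5.92 and 5.96 in p53KO and 4.72, 5.43, 5.24 and 4.77 in RbKO, without overlap, and rose by 1.32 (SE 0.20; limma adjusted p = 0.00147). It stayed called under every alternative that was run. Akr1c19 was at 8.39, 7.93, 7.68, 7.23 and 7.56 in p53KO and 6.55, 6.67, 6.75 and 5.87 in RbKO, again apart. Its rise of 1.38 (SE 0.30; limma adjusted p = 0.0274) ended without p53KO replicate 1 or 2 or RbKO replicate 1 or 4 (up to 0.194) and without set 2 (0.0566). Akr1c genes are near copies of each other, and the probe set may read several. The list's median was 0.24, and 7 of its members were higher and 1 lower at an unadjusted p under 0.05. Sult1e1, the estrogen sulfotransferase, was at 6.29 and 6.79 in the p53KO arrays of set 1 but at 2.96, 2.66 and 2.36 in those of set 3, against 2.94 to 3.13 in RbKO. The groups overlapped and it was not called (2.19; limma adjusted p = 0.187). Among Nrf2 targets and glutathione transferases, which detoxify electrophiles, Gstt3 rose (0.80; limma adjusted p = 0.0143) and Ces2g fell, out of 27. Gstt3 was at 5.59 and 5.85 in the set 1 arrays of p53KO against 4.74 to 4.89 in RbKO, and at 4.57 to 4.77 in those of set 3, and its call ended without p53KO replicate 1 or 2 or RbKO replicate 1 (up to 0.149).

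Mup3, a major urinary protein that the liver secretes, had the largest rise among the called genes. It was at 8.49, 9.20, 7.99, 8.76 and 8.12 in p53KO and 6.82, 7.64, 7.76 and 5.50 in RbKO, and the groups did not overlap, although RbKO replicate 3 came close. The rise was 1.86 (SE 0.42; limma adjusted p = 0.0352), 3.62-fold. The call ended without p53KO replicate 2 or 3, without any 1 of the 4 RbKO arrays (up to 0.146) and without DKO replicate 4 (0.0736). It also ended with no set term (0.431), with the set as a random block (0.0663), after another quantile normalization and with the trend and robust settings of eBayes. Mup genes are so alike that the probe set may read several of them. Gnmt, the glycine methyltransferase that consumes S-adenosylmethionine, was at 9.97, 10.05, 9.17, 9.38 and 9.11 in p53KO and 8.42, 8.68, 8.54 and 8.51 in RbKO. The p53KO arrays lay in or near the WT range of 9.13 to 10.75 and the RbKO arrays below it. Its difference was 1.32 (SE 0.26; limma adjusted p = 0.0134), where RbKO minus WT was -1.44 (adjusted p = 0.00131) and p53KO minus WT -0.11 (adjusted p = 0.873). The call ended without p53KO replicate 1 or 2 or RbKO replicate 1 (up to 0.110). Hsd17b10, a mitochondrial dehydrogenase of fatty acid and steroid breakdown, had the same order: 9.48 to 10.12 in p53KO, 8.72 to 9.42 in RbKO and 9.78 to 10.33 in WT, with a difference of 0.97 (limma adjusted p = 0.0135) and RbKO minus WT of -0.94 (adjusted p = 0.00151). The call ended without p53KO replicate 1 or RbKO replicate 1 (up to 0.0678). Sqle, the squalene epoxidase of cholesterol synthesis, was at 5.33, 4.84, 4.24, 4.26 and 4.85 in p53KO and 3.98, 3.59, 3.89 and 3.91 in RbKO. It was the 1 gene called of 20 in its pathway (0.93; limma adjusted p = 0.0274), where the median was 0.15, and the call ended without p53KO replicate 1 or 2 or RbKO replicate 1, 2 or 3 (up to 0.221).

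Genes of chromatin and the cell cycle appeared among the rises singly. Pttg1, securin, which holds sister chromatids together until anaphase, was at 8.54, 8.31, 8.32, 8.56 and 8.46 in p53KO and 7.65, 7.33, 7.39 and 6.52 in RbKO. The p53KO arrays were within a narrow range across both sets, and DKO was alike at 8.37 to 8.69, while WT was split by set, at 7.90 to 8.22 in set 1 and 6.47 and 6.28 in set 2. The difference was 0.97 (SE 0.17; limma adjusted p = 0.00443). H2bu2, a histone H2B gene, was at 4.13 to 4.82 in p53KO and 3.44 to 3.73 in RbKO (0.96; limma adjusted p = 0.00797), and its call ended without p53KO replicate 1 or 2 (up to 0.0824). H2bc4 (0.85; adjusted p = 0.0143) and H2aw (0.53; adjusted p = 0.0136), a histone H2B and a histone H2A gene named after their values were seen, were higher too. The call of H2bc4 ended without p53KO replicate 1 or 2 or RbKO replicate 1 (up to 0.0869), and that of H2aw without p53KO replicate 1 or RbKO replicate 1 (up to 0.0886). Histone genes are near copies, so that the probe sets may not read 1 gene each. Ccl9, a chemokine, was at 8.14, 8.71, 7.66, 7.56 and 7.40 in p53KO and 7.07, 7.24, 7.08 and 7.60 in RbKO and overlapped through RbKO replicate 4. It rose by 0.99 in the fit (limma adjusted p = 0.0113), the 1 gene called of 22 cytokines and chemokines, and the call ended without p53KO replicate 1 or 2 or RbKO replicate 1 (up to 0.149). The transcript AW112010 rose by 1.09 (limma adjusted p = 0.0337; p53KO 8.51 to 9.73, RbKO 7.77 to 9.24) and lost its call without p53KO replicate 1 or 2, RbKO replicate 1, 2 or 3 (up to 0.229) or DKO replicate 4 (0.0526). Cmtm8 rose by 0.97 (limma adjusted p = 0.0350; p53KO 6.38 to 7.07, RbKO 6.02 to 6.53) and lost it without p53KO replicate 1, 2 or 3, RbKO replicate 1, 3 or 4 (up to 0.138) or DKO replicate 4 (0.0585).

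In the list of ATF4 and unfolded protein response genes, 1 of 25 was called in each direction. Ddit3, the transcription factor CHOP of the stress response, was at 7.88, 7.84, 7.48, 7.39 and 7.66 in p53KO and 6.64, 7.07, 6.88 and 5.50 in RbKO, without overlap. It was higher by 0.96 (SE 0.21; limma adjusted p = 0.0309), with RbKO below WT (-0.56; adjusted p = 0.0429), and the call ended without p53KO replicate 1 or 2 or RbKO replicate 1, 3 or 4 (up to 0.153). Pdia6, a disulfide isomerase of the endoplasmic reticulum, differed by -0.60 (limma adjusted p = 0.0444), with 7.82 to 8.30 in p53KO and 7.84 to 8.75 in RbKO. Its call ended in the fits without p53KO replicate 1, 2 or 3 or any RbKO array (up to 0.322). Other genes of protein folding and glycosylation in that compartment, named after their values were seen, were lower in p53KO: Uggt1, the folding sensor of glycoproteins (-0.74; limma adjusted p = 0.0225), Alg8, a glucosyltransferase of the glycan precursor (-0.76; adjusted p = 0.0384), and Mlec, a lectin that binds glucosylated glycans (-0.77; adjusted p = 0.00884; its other probe set -1.05). Mlec was at 5.64 to 6.16 in p53KO and 6.70 to 6.88 in RbKO, and Alg8 at 7.42 to 7.64 and 7.98 to 8.18, both without overlap, whereas Uggt1 ranges touched at 6.73. The call of Mlec ended without p53KO replicate 1 or 2 (up to 0.110), that of Uggt1 without p53KO replicate 1 or 2 or RbKO replicate 1 or 4 (up to 0.216), and that of Alg8 without p53KO replicate 1, 2, 3 or 4, any RbKO array (up to 0.161) or DKO replicate 4 (0.0746). The list as a whole had a median of -0.01, with 6 lower and 2 higher at an unadjusted p under 0.05.

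**Figure D3:**
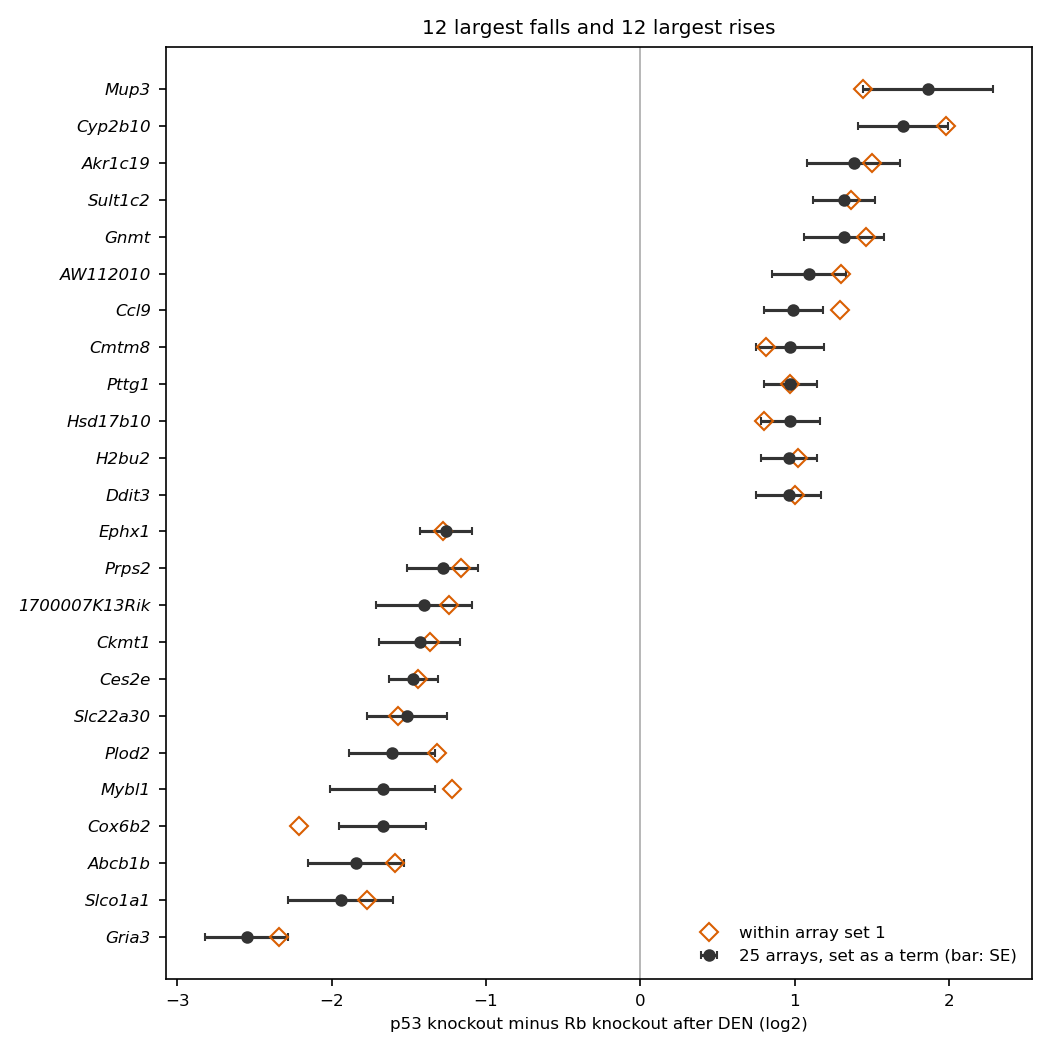
The p53KO minus RbKO difference on the log2 scale for 24 called genes, 12 lower and 12 higher in p53KO (dots with bars of 1 SE from the fit to 25 arrays) and the same difference within set 1 (diamonds). The diamonds lie on the same side of 0 as the dots for all 24 genes, which the choice of genes fixed, from Gria3 at -2.55 and -2.34 to Mup3 at 1.86 and 1.44.

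DEN-treated WT served to place both knockouts. Both comparisons with WT share its 5 arrays, so their values stand side by side only. Of 15951 genes, 284 were called between p53KO and WT (1.78%; 113 higher and 171 lower) and 1811 between RbKO and WT (11.4%; 834 higher and 977 lower, or 951 and 740 after median centring of the arrays). The RbKO count was 279 without RbKO replicate 4, 1084 without WT replicate 4, 975 without WT replicate 5 and 193 without all of set 2. The p53KO count was 35 without p53KO replicate 2, 57 without p53KO replicate 1 and 174 without WT replicate 2. WT lay between the knockouts for 76 of the 92 genes called between p53KO and RbKO. Choosing genes by a difference between the knockouts favours this order, and its share over all genes tested was not counted. Of these 92, 34 were also called between p53KO and WT only, 32 between RbKO and WT only, 1 (Gria3) in both and 25 in neither. Among genes on the p53KO side were Ces2e (-1.56; limma adjusted p = 3.09e-06) and Ephx1 (-1.68; adjusted p = 3.12e-06), where RbKO minus WT was -0.09 and -0.42. Dglucy (-1.14; adjusted p = 0.000310) and Psrc1 (-1.11; adjusted p = 0.00855) were also below WT in p53KO, and Mup3 above it (1.70; adjusted p = 0.0347). On the RbKO side stood Gnmt and Hsd17b10, below WT, and Fbxw7 (0.71; adjusted p = 0.00427), Polk (0.54; adjusted p = 0.0155) and Prps2 (0.84; adjusted p = 0.00771), above it. Within set 1 several of the called differences from WT were smaller and not called: RbKO minus WT was 0.34 for Polk, 0.52 for Prps2, 0.58 for Mybl1 and -0.37 for Ddit3, and p53KO minus WT was 0.95 for Mup3. Hsd17b10 was at -0.62 in RbKO there and stayed called. Polk also differed by -0.61 between p53KO and WT, just over the threshold (adjusted p = 0.0511). The p53 target lists together had 10 of 52 members lower and 0 higher in p53KO than in WT (median -0.37; 1.07% of all genes lower), and 2 lower and 2 higher in RbKO than in WT (median -0.06).

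**Figure D4:**
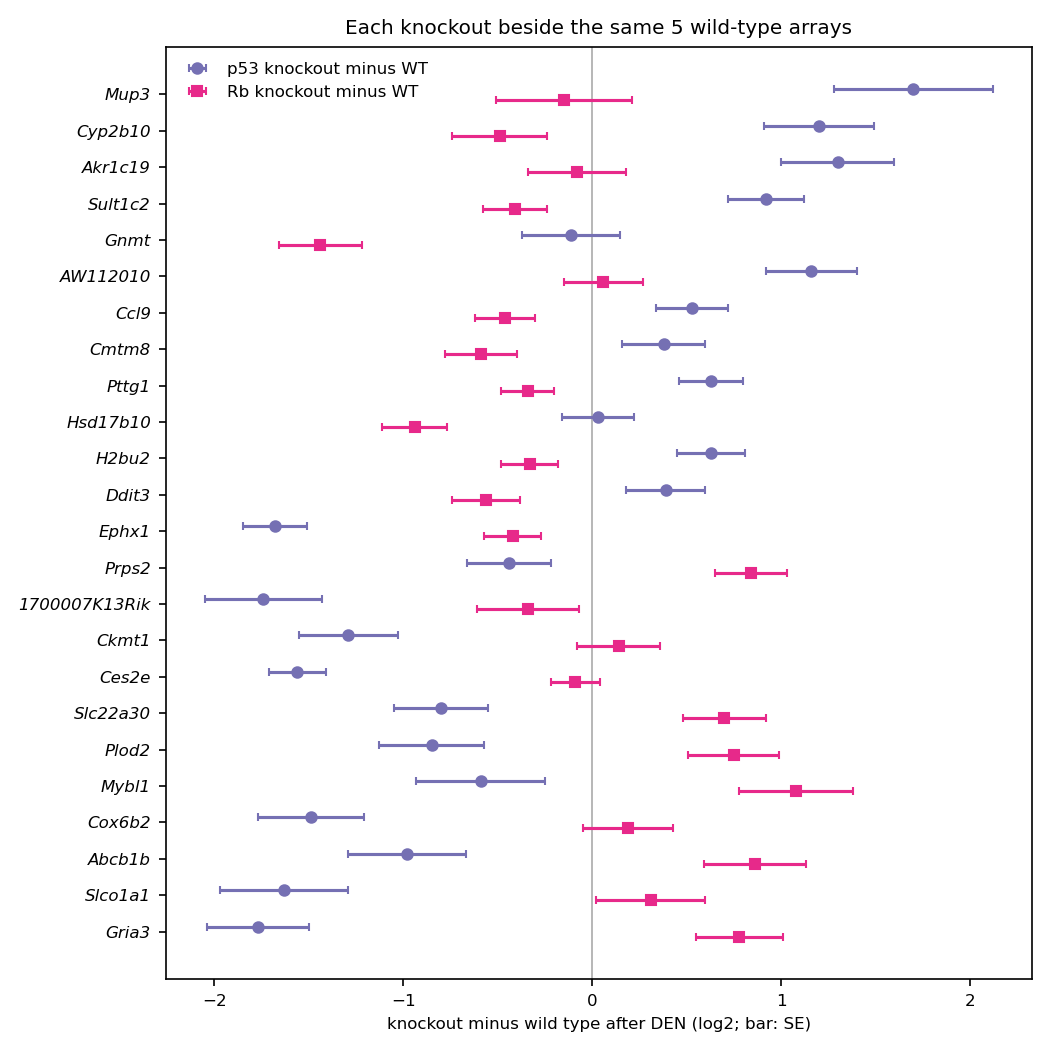
Differences from DEN-treated WT on the log2 scale for the same 12 falls and 12 rises, with circles for p53KO minus WT and squares for RbKO minus WT and bars of 1 SE. Both share the 5 WT arrays. Ces2e and Ephx1 show the p53KO circle far below 0 (-1.56 and -1.68) beside an RbKO square near it (-0.09 and -0.42), and Gnmt the reverse (-0.11 and -1.44).

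Listed genes of the Rb and E2F pathway, replication and mitosis did not pass the threshold between the knockouts in the fit to all arrays. Of 28 Rb family, E2F and G1 genes, 44 replication genes and 37 genes of mitosis and cytokinesis, 0 were called (limma). At an unadjusted p under 0.05, 5 were lower and 1 higher in the first list, 9 lower in the second and 1 lower in the third, beside 5.28% of all genes lower and 5.82% higher. Within set 1, 2, 3 and 1 of the members were called lower and 0 higher, beside 2.20% of all genes lower. Their median differences were -0.15, -0.08 and -0.18 beside 0.02 for all genes tested. Pola1, the catalytic subunit of DNA polymerase alpha, came closest at -0.72 (limma adjusted p = 0.0638), with 5.64 to 6.84 in p53KO and 6.52 to 7.17 in RbKO, which overlap. Set 1 alone gave -0.71 (adjusted p = 0.0221). Ccnd1, cyclin D1, differed by -0.72 (limma adjusted p = 0.162; set 1 alone 0.0456) and Dnmt1, the maintenance DNA methyltransferase, by -0.60 (adjusted p = 0.150; set 1 alone 0.0142). Cenpf, a kinetochore protein, was at 6.27 and 5.76 in the p53KO arrays of set 1 and 6.98, 6.98 and 7.02 in those of set 3, against 6.67 to 7.22 in RbKO, so that p53KO overlapped the RbKO range (-0.67; limma adjusted p = 0.429), while set 1 alone gave -0.77 (adjusted p = 0.0115). Against WT, 25 of 37 mitosis genes were called higher in RbKO (median 0.96; 5.23% of all genes higher) and 2 in p53KO (median 0.61; 0.708%). Within set 1 the RbKO count was 7 of 37, beside 0.959% of all genes called higher there, and the medians were 0.39 in RbKO and 0.17 in p53KO. Replication genes had 13 of 44 called higher in RbKO (median 0.34; 7 of 44 and 0.27 within set 1) and 2 in p53KO (median 0.18; 0.05 within set 1). The difference between the knockouts is the test given first, in which 0 members of these lists passed. Pttg1, in neither list, was called higher in p53KO, as given above. The genes of homologous recombination and the Fanconi anemia pathway likewise had 0 of 23 called, with a median of 0.00 and 1 lower at an unadjusted p under 0.05. Prkdc, the DNA-dependent protein kinase that joins broken ends, was named after its values were seen. It differed by -0.66 (limma adjusted p = 0.0478), and its call ended without p53KO replicate 1, 2 or 5 or any RbKO array (up to 0.273).

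Acute phase and amino acid metabolism genes had mostly positive differences that did not pass the test. Of 29 acute phase genes 0 were called (limma), 10 were higher and 1 lower at an unadjusted p under 0.05 (5.82% and 5.28% of all genes), and the median was 0.22. Within set 1, 7 were called higher, beside 1.14% of all genes. Saa3, a serum amyloid A, was at 8.24, 9.23, 7.44, 7.10 and 6.98 in p53KO and 6.28, 6.77, 6.89 and 4.73 in RbKO, just apart (1.55; limma adjusted p = 0.0959). Orm1, orosomucoid, had p53KO at 8.43 to 10.86 and RbKO at 4.53 to 8.72 (2.07; adjusted p = 0.0748). The mean over the list was 8.71 to 9.33 in p53KO, 8.27 to 8.70 in RbKO, 8.07 to 9.18 in WT and 8.90 to 9.07 in DKO. Gluconeogenesis, amino acid and urea cycle genes had 0 of 21 called and 7 higher at an unadjusted p under 0.05, with a median of 0.29. Within set 1 all of their 7 calls were higher, beside 1.14% of all genes called higher there. Gpt, alanine aminotransferase, differed by 1.14 (limma adjusted p = 0.114), and Hal, histidine ammonia lyase, by 0.86 (adjusted p = 0.0741). Against WT, 8 of these 21 were lower in RbKO (median -0.46; 6.13% of all genes lower) and 2 in p53KO (median -0.28). Cxcl10, an interferon-induced chemokine, was at 5.71, 5.44, 6.21, 5.99 and 5.50 in p53KO and 4.79, 4.48, 4.82 and 4.96 in RbKO, without overlap, and just missed the threshold (1.15; limma adjusted p = 0.0527). Interferon-stimulated genes as a list had 0 of 28 called, with a median of -0.08 and 2 lower at an unadjusted p under 0.05. Leap2, a liver peptide hormone, and Slc47a1, an exporter of organic cations, were named after their values were seen and were higher in p53KO (0.90; limma adjusted p = 0.00590, and 0.85; adjusted p = 0.0451). The call of Leap2 ended without p53KO replicate 2 (0.0777), and that of Slc47a1 without p53KO replicate 1, 2, 4 or 5, RbKO replicate 1, 3 or 4 (up to 0.184) or DKO replicate 4 or 5 (0.0719 and 0.0523).

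Bnip3, a mitophagy receptor, and Coa6, an assembly factor of cytochrome c oxidase, also named after their values were seen, differed by 0.76 (limma adjusted p = 0.0398) and 0.80 (adjusted p = 0.0350). Bnip3 overlapped between groups, at 9.03 to 10.20 in p53KO and 8.84 to 9.92 in RbKO, and Coa6 did not, at 6.36 to 7.35 and 5.93 to 6.27. Either call ended without p53KO replicate 1, 2 or 3 or RbKO replicate 1, 2 or 3, and that of Coa6 also without RbKO replicate 4 (up to 0.301 and 0.314).

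Markers of liver cells other than hepatocytes were checked because the RNA came from whole liver, in which fewer cells of a type and less RNA per cell cannot be told apart. The p53KO minus RbKO difference was below 0 for 16 of 17 endothelial markers, with a median of -0.30 (-0.51 within set 1), and 1 of 17 was called lower, beside 0.382% of all genes. At an unadjusted p under 0.05, 6 were lower and 0 higher, and within set 1, 7 were called lower, beside 2.20% of all genes. The 1 gene called in the fit to all arrays was Mrc1, the mannose receptor of sinusoidal endothelium and macrophages, at 7.12, 7.12, 7.63, 7.47 and 7.61 in p53KO and 8.09, 8.07, 8.16 and 8.06 in RbKO. The RbKO arrays were nearly equal in sets 1 and 2 and above all p53KO arrays. The difference was -0.88 (SE 0.16; limma adjusted p = 0.00797), RbKO minus WT was 0.61 and p53KO minus WT -0.26, and the call ended without p53KO replicate 1 or 2 (up to 0.0996). The mean over the 17 markers was 5.82 to 6.12 in p53KO, 6.12 to 6.36 in RbKO, 6.27 to 6.56 in WT and 5.65 to 6.05 in DKO. Its part in the other differences between p53KO and RbKO was not tested. Named after their values were seen, Cd34, a surface protein of vessels (-0.69; limma adjusted p = 0.0234), F2r, a thrombin receptor (-0.52; adjusted p = 0.0317), Msn, moesin, which links actin to the membrane (-0.77; adjusted p = 0.0399), and Rspo3, the Wnt enhancer made by central vein endothelium (-0.64; adjusted p = 0.0350), were lower. Their direction was known when they were chosen, so they add nothing to the counts of the listed markers. Rspo3 was at 5.87 to 6.17 in p53KO and 6.52 to 6.59 in RbKO, F2r at 6.60 to 6.83 and 7.10 to 7.24, and Cd34 at 4.14 to 4.58 and 4.70 to 5.22, all without overlap, while Msn overlapped. Each of these calls ended without p53KO replicate 2. Those of F2r, Msn and Rspo3 ended as well without p53KO replicate 1 or RbKO replicate 1 or 4, those of Msn and Rspo3 without p53KO replicate 3 or DKO replicate 4, those of Cd34, F2r and Rspo3 without RbKO replicate 3, and those of Cd34 and Msn without RbKO replicate 2. The adjusted p reached 0.137, 0.168, 0.344 and 0.163 for Cd34, F2r, Msn and Rspo3.

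Stellate cell and matrix markers had a mean of 6.11 to 6.21 in p53KO and 6.37 to 6.43 in RbKO, with 15 of 17 differences below 0, a median of -0.17 and 0 called (3 lower at an unadjusted p under 0.05). For lymphocytes the mean was 4.10 to 4.33 in p53KO and 4.34 to 4.47 in RbKO, with 0 of 10 called (limma; 2 lower at an unadjusted p under 0.05). The markers of Kupffer cells, neutrophils, erythroid cells and cholangiocytes overlapped between the groups in their means, and 0 were called. At an unadjusted p under 0.05, 0 of 13 Kupffer, 1 of 11 neutrophil, 1 of 10 erythroid and 2 of 6 cholangiocyte markers differed, beside 11.1% of all genes. Neutrophil markers, at a median of -0.10, had 5 of 11 called lower within set 1 (median -0.58), beside 2.20% of all genes called lower there. Of 11 hepatocyte markers 0 were called, 0 passed an unadjusted p under 0.05, and the median was -0.01.

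**Figure D5:**
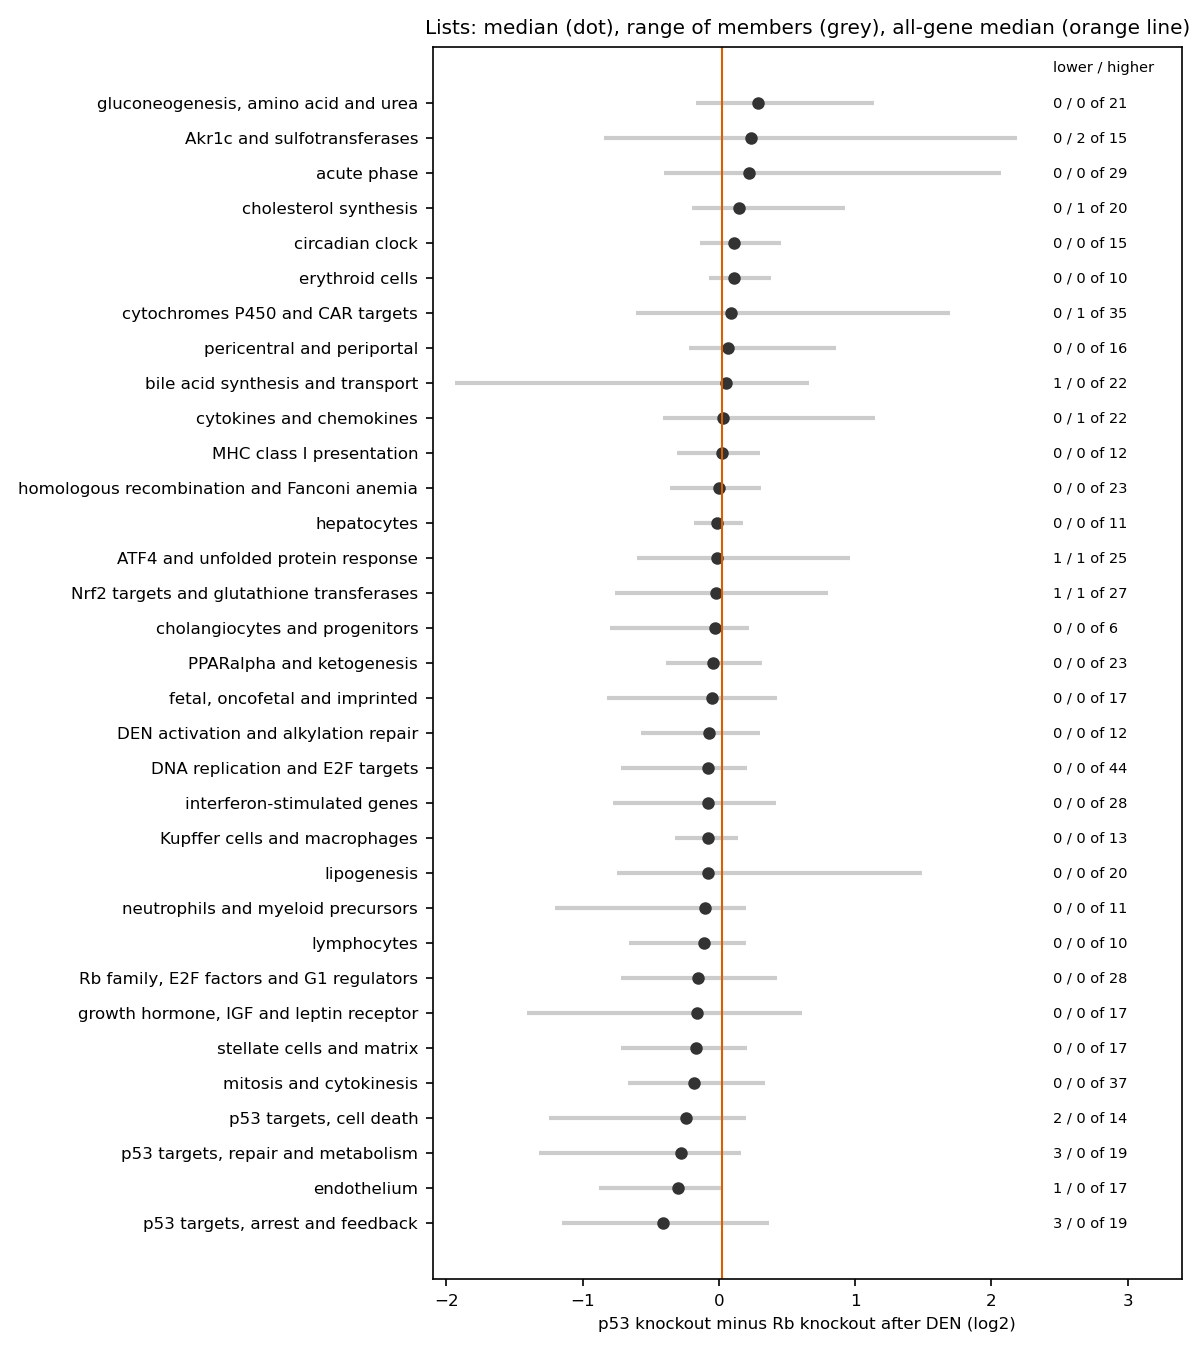
Median p53KO minus RbKO difference (dots, log2) of 33 gene lists, with grey lines from the lowest to the highest member, the median of all genes tested (0.02) in orange, and the number of members called lower and higher out of those tested at the right. The 3 p53 target lists have 3, 2 and 3 members called lower, 0 higher, and medians of -0.41, -0.24 and -0.28, and the endothelial median is -0.30.

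By chromosome, the share of genes called was 0.511% on chromosome 11, which carries the p53 gene (7 of 1369), 0.187% on chromosome 14, which carries Rb1 (1 of 536), and 1.46% on the X chromosome (7 of 481). The share over all genes tested was 0.577%, and chromosomes 13, 3 and 10 had 1.25%, 1.06% and 1.05%. The 7 called genes of chromosome 11 were all higher in p53KO: H2aw, H2bu2, Pttg1, Leap2, Ccl9, Slc47a1 and Tmem256, the last (0.72; limma adjusted p = 0.0183) chosen after its values were seen. On all chromosomes, 31 of 92 calls were higher. Calls also went 1 way on some other chromosomes: all 6 on chromosome 1 and all 5 on chromosome 2 were lower in p53KO. H2aw and H2bu2 lie in 1 small histone gene cluster. The mice are of mixed FVB;129 background, and which strain's sequence each group carries around the p53 gene was not tested. Of the 7 on the X chromosome, 6 were lower in p53KO, Gria3, Prps2, Eda2r and Msn among them, beside 61 of all 92 calls. With the Xist signal as a covariate, 94 genes were called, 87 of them among the 92.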

How the data were processed

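Whole-liver RNA was amplified, labelled and hybridised to 1-colour Affymetrix arrays, per the labels' protocols. The deposited values are log2 signals that the authors made with RMA in Affymetrix Expression Console 1.1, per the submitters' processing notes. Whether all arrays were normalised in 1 run is not given in the sources used here. The number of arrays limits the precision.

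Of 35555 probe sets, 21789 with 1 gene symbol in the supplied probe table were used (1620 had several symbols, 12146 were unlisted), and the probe set with the highest mean stood for a gene. Of 19938 genes, 3987 with a mean under the 20th percentile (3.33) were left out and 15951 tested. No arrays were identical, and the 9 compared arrays correlated at 0.938 to 0.991 (Pearson, over genes).

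Groups came from the labels and array sets from the array names. The fit, over the 25 arrays together, had a mean for each of 6 groups and a fixed set term (lmFit and eBayes of limma 3.58.1, run under R 4.3.3). Tests were two-sided, with Benjamini-Hochberg adjustment over all genes tested in each of 3 comparisons. SE is limma's moderated standard error. Intervals are 95%. The text names Rb1, the 12 called genes with the largest rise and the 12 with the largest fall (set 1 alone giving the same direction), called list members or else up to 4 in order of p, and the sex chromosome genes. Other names are marked as chosen after their values were seen, so their direction counts for no list or theme. The groups compared and the 34 gene lists were chosen with earlier results of these data known, and lists are described by counts and medians only.

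Alternatives covered the set term (none, or a random block with statmod 1.5.0), the sets and groups fitted, the filter, the choice of probe set, scaling, array weights, eBayes settings, Xist as a covariate and each compared array left out. Leaving out DKO replicate 4 or 5, which help to tie set 3 to set 1, was added after seeing the data. On simulated data with these group sizes, the fit of p53KO minus RbKO recovered 20.9% of 67 genes changed by 0.5 log2, 91% of 67 changed by 1 and 100% of 66 changed by 2, with 8 false calls among 149. The simulated arrays had independent normal noise and purely additive set shifts, so these shares need not hold for the real arrays.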

Additional observations from a re-analysis of the deposited data

Results flagged for a closer look

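Dixon's test at the 95% level asks whether 1 array of a group stands apart from the rest. It was run on 208 groups (the 9 compared arrays, for the named genes) and marked 13, where chance marks about 1 in 20. Of these, 5 were the lowest value of RbKO replicate 4, the one RbKO array of set 2. They were Ckmt1 at 5.00 (the others 6.36 to 6.61), Aurka, a mitotic kinase, at 5.63 (6.37 to 6.50), Ebp, a sterol isomerase, at 5.38 (6.61 to 6.77), Pdia6 at 7.84 (8.63 to 8.75) and Slc27a5, a bile acid-CoA ligase, at 6.93 (8.07 to 8.24). The DEN-treated WT arrays of set 2 were also below those of set 1 for Ckmt1 (4.96 and 5.38 against 6.03 to 6.50) and Aurka (5.41 and 5.41 against 6.08 to 6.56). The same held for Ebp (6.22 and 6.30 against 6.92 to 7.24) and Pdia6 (7.64 and 7.78 against 8.51 to 8.77). For Slc27a5 the WT sets overlapped (8.44 and 8.59 against 8.57 to 8.93). Whether the set term covers these shifts was not tested.

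In p53KO replicate 2, Plod2 was low at 4.01 (the others 4.32 to 4.42), Hsp90b1, an endoplasmic reticulum chaperone, was low at 11.53 (11.72 to 11.77) and Orm3, an acute phase protein, was high at 5.23 (3.59 to 3.88). Csf1, a macrophage growth factor, was high in p53KO replicate 1 at 4.51 (4.26 to 4.31), and Ckmt1 low in p53KO replicate 5 at 4.72 (5.11 to 5.17). In RbKO, replicate 2 was lowest for Eda2r at 4.62 (4.87 to 4.92) and for Polk at 7.17 (7.42 to 7.44), and replicate 1 highest for Rspo3 at 6.59 (6.52 to 6.53).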

How the results depend on the processing

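No paired analysis was possible because the p53KO and RbKO arrays share only 1 number in their labels, an R before a number being read as part of it, and the numbers are not said to mark pairs. Against 92 calls between p53KO and RbKO, 23 were made with no set term, 55 with the set as a random block, 533 in set 1 alone, 143 without set 2, 276 with only the compared groups fitted and 295 with array weights. With only the compared groups fitted, the difference is the same as in set 1 alone, the one set that holds both, and only its estimated spread changes. Leaving out 1 array gave 31 (without p53KO replicate 1) to 144 (without DKO replicate 5). Filters, probe set choice, centring, quantile normalization, trend and robust settings and Xist gave 83 to 95.

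Against 284 calls between p53KO and WT, 1256 were made with no set term, 516 with the random block, 943 in set 1 alone, 154 with only the compared groups, 676 with array weights and 158 with Xist, and 35 to 397 with 1 array left out. Against 1811 between RbKO and WT, there were 390 with no set term, 532 in set 1 alone, 193 without set 2, 795 with only the compared groups, and 279 to 1970 with 1 array left out. The causes were not tested. For p53KO against WT, too, only set 1 holds both groups, so fitting only these groups gives the set 1 difference. Centring each array moved the share of lower genes in RbKO minus WT from 53.9% to 43.8%.

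The 54 called genes that were followed were picked from the fit to all arrays, and the alternatives reuse these arrays, which favours an unchanged sign. None of the 54 turned its sign under any alternative. Genes that were not called did: leaving out 1 array moved Xist (-0.70 in the fit to all arrays) from -2.73 to 0.66, Eif2s3y (0.57) from -0.61 to 2.11, Kdm5d (0.15) from -0.45 to 0.98 and Uty (0.21) from -0.45 to 1.16. Without DKO replicate 5 Xist was 0.16, Kdm5d -0.14 and Uty -0.20, and with Xist as a covariate Kdm5d and Uty were -0.12. Rb1 (-0.13) was at 0.00 without set 2 and at -0.22 to 0.00 with 1 array left out. Over all named genes and alternatives, 2125 of 2487 values kept their sign and their side of the threshold, 19 turned sign, 268 lost their call and 75 gained one. For the 34 lists, 671 of 816 counts stayed within 1.5 times and 145 moved. Of 54 named calls, 7 held under every alternative: Gria3, Ces2e, Ephx1, Polk, Dglucy, Map3k20 and Sult1c2. In set 1 alone 53 of the 54 stayed called (Mdm2 did not), and with no set term 16. RbKO replicate 4 is the one compared array of set 2, whose set term rests on the WT and RbKO arrays. The set 3 term rests on the DKO and p53KO arrays, the groups that sets 1 and 3 share.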

Other observations

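Sult1e1, the estrogen sulfotransferase, was high on 2 of 5 p53KO arrays and 2 of 5 DEN-treated WT arrays. It was at 6.29 and 6.79 in p53KO replicates 1 and 2 and at 5.54, 2.53, 2.90, 3.84 and 5.03 in the 5 DEN-treated WT arrays, and it stayed at 2.36 to 3.73 in the other DEN-treated arrays.

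The Y-linked genes Kdm5d and Uty were, like Eif2s3y, intermediate in p53KO replicate 5 (4.35 and 3.66) beside 3.82 to 4.09 and 2.94 to 3.01 in the other compared arrays with high Xist, and 6.37 to 7.13 and 5.63 to 6.92 in those with low Xist. Without p53KO replicate 5, 94 genes were called between p53KO and RbKO, 85 of them among the 92.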
